A study of Arabidopsis thaliana with 9 samples.

Results

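Histone variants and linker histones were followed in the messenger RNA of Arabidopsis thaliana seedlings of 3 genotypes, Col, thp1-5 and sac3bc. The 10 genes were taken by locus from the 37361 loci counted in every library: HTA8, HTA9 and HTA11 for the H2A variant H2A.Z, HTR4 and HTR5 for the H3 variant H3.3, the H3 gene HTR11, HTR12 for the centromeric H3 (CENH3), and the linker histone genes H1.1, H1.2 and HIS1-3. They were chosen by gene family, with earlier results of these data known. Col is the unmutated control. THP1 and SAC3 proteins belong to TREX-2, a complex at the nuclear pore that takes part in mRNA export, and the study examined mRNAs in mutants of both. The alleles behind the names thp1-5 and sac3bc are not described in the sources used here. All seedlings were 14 days old, were grown on diluted MS medium with 1% sucrose under 16 h light and 8 h dark at 22 °C, and received no treatment. Each genotype had 3 libraries of polyadenylated RNA.

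In a nucleosome, DNA is wrapped around core histones, and a linker histone binds where the DNA enters and leaves. Canonical core histones are made mostly while DNA is replicated. Variants such as H3.3 and H2A.Z are also made and inserted outside replication, at transcribed genes and at gene starts, and CENH3 marks the centromere. H1.1 and H1.2 are the main linker histones of Arabidopsis, and HIS1-3 is a shorter linker histone known to be induced by drought and abscisic acid and to be present in guard cells.

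Libraries held 13.2 to 15.6 M counts in Col, 12.8 to 16.7 M in thp1-5 and 16.1 to 17.9 M in sac3bc (M is 1e6). Levels are given as CPM, counts per 1e6 counts of the library, scaled by TMM, edgeR's normalization, and are divided by gene length (CPM per kb) wherever genes are compared with each other. Differences are log2 fold changes ± standard error from edgeR's quasi-likelihood test. A gene is called where its p, adjusted by Benjamini-Hochberg over 22400 genes, is under 0.05. Scaling by total counts alone moved the median of all genes by 0.29 in thp1-5 and 0.34 in sac3bc against Col. THP1 transcript did not mark thp1-5, at 12.6 ± 1.32 CPM in Col and 11.8 ± 0.787 CPM in thp1-5 (SD, n = 3). Nor did these transcripts mark 1 genotype alone, since THP1 was also lower in sac3bc (6.17 ± 1.03 CPM) and SAC3B in thp1-5 (33.2 ± 2.87 CPM). In sac3bc, SAC3B was at 25.7 ± 2.38 CPM against 47.0 ± 0.270 CPM in Col, and SAC3C was at 7.71 ± 0.214 CPM against 15.2 ± 0.818 CPM.

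All 10 genes passed the filter on low counts. Against Col, 3 were called higher and 4 lower in thp1-5, where 63.8% of all tested genes were called. In sac3bc 3 were called higher and 5 lower, and 68.0% of all genes were called. The share of these genes called is therefore close to the background, and most of the changes were small: 2 of the 10, HIS1-3 and HTR11, changed by at least 2-fold in each mutant, against 9.48% of all genes in thp1-5 and 12.6% in sac3bc. In each mutant 7 of the 10 did not overlap Col in any library, against 65.4% of all genes in thp1-5 and 69.3% in sac3bc. Both comparisons use the same Col libraries. With total counts the calls became 6 higher and 4 lower in thp1-5, and 3 higher and 4 lower in sac3bc. Under that scaling 56.0% of all genes were called higher and 16.1% lower in thp1-5, and 60.8% and 16.2% in sac3bc.

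**Figure D1:**
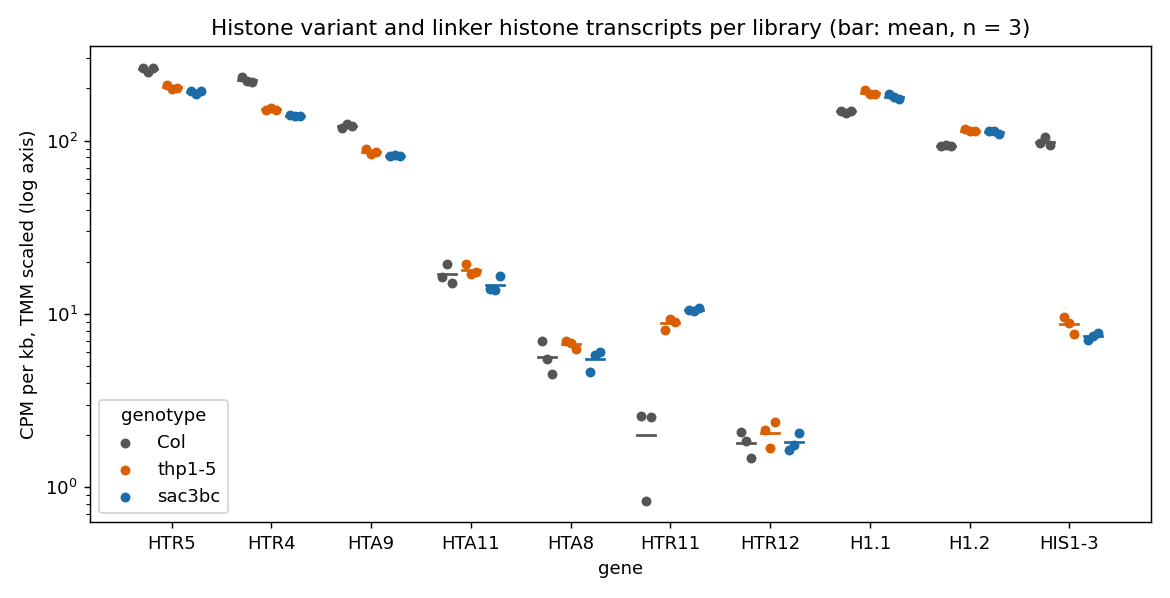
Levels of the 10 transcripts in each library, in CPM per kb scaled by TMM on a log axis, with 1 point per library and a bar at the mean of the 3 libraries of a genotype. HIS1-3 stood near 100 in Col and below 10 in every mutant library, and HTR11 was higher in every mutant library than in Col.

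HIS1-3 (AT2G18050) fell the most of the 10. Its level was 93.1, 102 and 90.9 CPM in the Col libraries, 9.30, 8.53 and 7.46 CPM in thp1-5 and 6.81, 7.26 and 7.50 CPM in sac3bc. Every mutant library was far below every Col library, and the libraries of the 2 mutants overlapped. The counts behind these levels were 1056 to 1380 in Col and 106 to 151 over all 6 mutant libraries, so the low values still rest on over 100 counts each. The log2 fold change was -3.50 ± 0.07 in thp1-5 (adjusted p = 3.18e-86), an 11.3-fold fall, and -3.72 ± 0.07 in sac3bc (adjusted p = 3.81e-91), a 13.2-fold fall. Among 22400 genes HIS1-3 had the 15th lowest fold change in thp1-5 and the 30th lowest in sac3bc. Between the mutants the difference was 0.23 ± 0.11 and was not called (adjusted p = 0.129). In these seedlings, a mixture of cell types, fewer cells of a type and less RNA per cell cannot be told apart.

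The genes H1.1 (AT1G06760) and H1.2 (AT2G30620) rose while HIS1-3 fell. H1.1 was at 173, 168 and 173 CPM in Col, 228, 214 and 214 CPM in thp1-5 and 216, 208 and 202 CPM in sac3bc. H1.2 was at 156 CPM in each Col library, 189 to 194 CPM in thp1-5 and 182 to 191 CPM in sac3bc. For both genes every mutant library was above every Col library. The changes of H1.1 were 0.35 ± 0.03 in thp1-5 (adjusted p = 1.04e-21) and 0.29 ± 0.03 in sac3bc (adjusted p = 1.86e-16). Those of H1.2 were 0.29 ± 0.03 (adjusted p = 2.5e-16) and 0.26 ± 0.03 (adjusted p = 3.08e-14). Changes of this size were common, as the median absolute change of all tested genes was 0.34 in thp1-5 and 0.37 in sac3bc. With total counts all 4 changes of H1.1 and H1.2 were larger, at 0.58 to 0.64, a move of over 1.5 times. That move was about the shift of all genes, whose median under this scaling was 0.30 in thp1-5 and 0.37 in sac3bc.

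Part of the H1.1 count may belong to another locus. In the reference, 41.8% of its exonic bases are shared with AT1G04503, an antisense non-coding locus of 484 bases that lies within them, and the sources used here do not say whether counting used strand. Without strand, reads of the 2 loci cannot be told apart, so the H1.1 value is uncertain to that extent. AT1G04503 had counts equal to 47.8% to 51.3% of those of H1.1 in every library, with no separation between genotypes.

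The sequences before the 3 linker histone genes are shown because these genes moved in opposite directions. All 10 gene lengths in the deposited tables equal the exon lengths of RefSeq's TAIR10.1 annotation, as do 99.51% of 37051 loci, and positions and sequences below are from that reference. HIS1-3 lies on chromosome 2 from 7845923 to 7847031, plus strand, with the window chr2:7845673-7845922. H1.1 lies on chromosome 1 from 2076504 to 2077767, minus strand, with the window chr1:2077768-2078017. H1.2 lies on chromosome 2 from 13044931 to 13046682, plus strand, with the window chr2:13044681-13044930. Each window holds the 250 bases before the annotated start, 5′ to 3′ on the gene's strand, with capitals marking GATCCGC, the reverse complement of GCGGATC.
HIS1-3: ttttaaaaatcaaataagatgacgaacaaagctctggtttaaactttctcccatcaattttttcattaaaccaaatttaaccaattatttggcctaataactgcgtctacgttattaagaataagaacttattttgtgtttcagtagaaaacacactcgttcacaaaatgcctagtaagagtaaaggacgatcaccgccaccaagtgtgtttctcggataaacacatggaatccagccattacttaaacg
H1.1: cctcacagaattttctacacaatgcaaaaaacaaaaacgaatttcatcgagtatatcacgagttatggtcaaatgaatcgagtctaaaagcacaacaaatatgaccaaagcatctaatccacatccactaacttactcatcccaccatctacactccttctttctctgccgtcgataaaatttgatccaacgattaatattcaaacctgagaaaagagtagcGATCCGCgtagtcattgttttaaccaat
H1.2: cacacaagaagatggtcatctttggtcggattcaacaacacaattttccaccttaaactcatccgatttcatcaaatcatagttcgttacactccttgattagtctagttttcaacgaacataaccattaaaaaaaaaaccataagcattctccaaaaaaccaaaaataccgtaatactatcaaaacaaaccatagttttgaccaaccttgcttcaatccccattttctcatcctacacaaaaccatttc

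GCGGATC, a part of the octamer motif known from plant histone gene promoters, was found on either strand in 0.6% of the 27437 promoters of the same length, and in 2 of the 10 genes here. It lay 28 bases before the start of H1.1 and 17 bases before the start of HTR5. The abscisic acid response element core ACGTG occurred in 22.9% of promoters and in 0 of the 10. CACGTG, the G-box, which contains ACGTG, occurred in 6.5% and also in 0 of the 10. The E2F-type sequences TTCCCGC and TTGGCGC occurred in 1.2% and 0.8% of promoters, and AAACCCT, the telo-box core, in 7.3%, each in 0 of the 10. Of the 10 windows 5, those of HTA9, HTR4, HTR5, HTR11 and HTR12, hold exons of a neighbouring locus. A missing match says only that these letters are not in this window.

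The make-up of the linker histone transcripts shifted with these changes. HIS1-3 made up 28.4%, 30.6% and 27.9% of the linker histone counts per kb in the Col libraries, 2.98%, 2.87% and 2.52% in thp1-5 and 2.29%, 2.51% and 2.66% in sac3bc. H1.1 made up 43.5% ± 1.2 (SD, n = 3) in Col, 60.5% ± 0.397 in thp1-5 and 60.1% ± 0.371 in sac3bc. H1.2 made up 27.6% ± 0.230, 36.7% ± 0.560 and 37.4% ± 0.211. The mutants did not overlap Col in any of the 3 shares. For each, the exact two-sided permutation test of either mutant against Col gave p = 0.1, the smallest that 3 libraries against 3 allow. The shares are parts of the same sum, so a fall in that of HIS1-3 raises the others. They are not separate results. The summed level was 340 ± 3.46 CPM per kb in Col, 312 ± 9.54 in thp1-5 and 299 ± 8.16 in sac3bc.

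**Figure D2:**
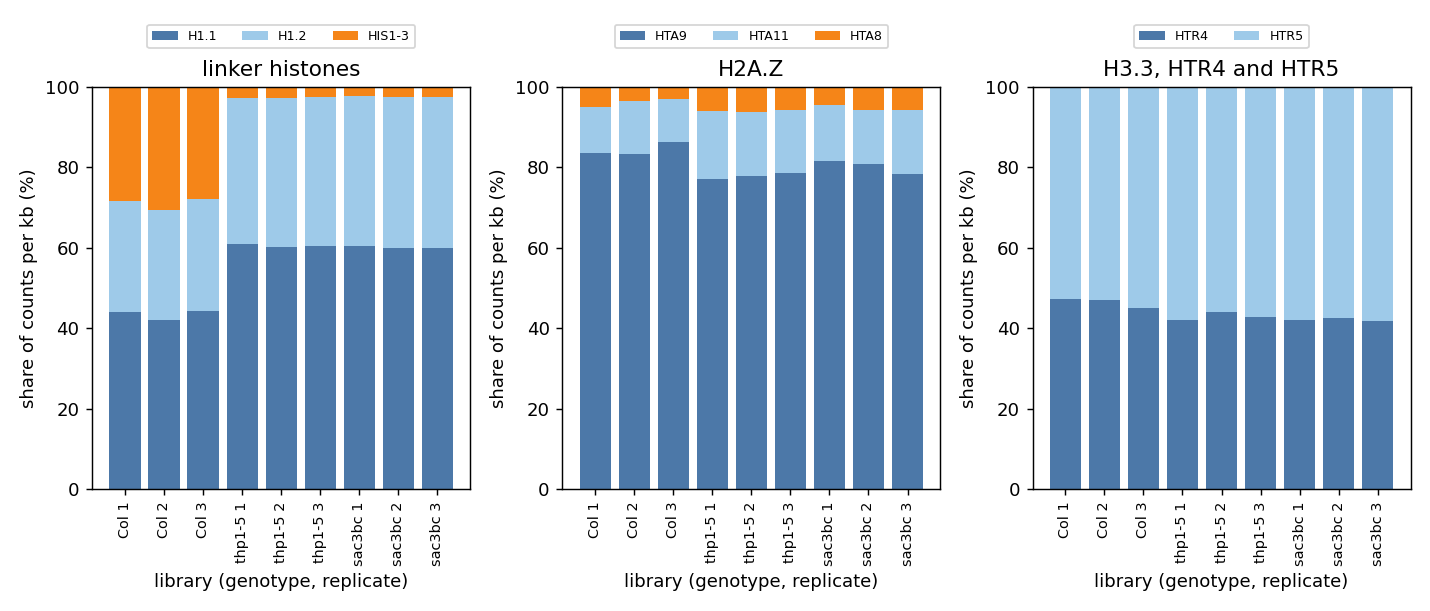
Share of each gene in its family's counts per kb, in percent, for each library, with panels for the linker histones, H2A.Z and the H3.3 genes HTR4 and HTR5. HIS1-3 held between 27.9% and 30.6% of the linker histone signal in Col and between 2.29% and 2.98% in the mutants.

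Known inducers and sites of HIS1-3 were covered by 2 lists. Of 18 abscisic acid and drought response genes, 15 fell and 2 rose in thp1-5 and 14 fell and 2 rose in sac3bc, with medians of -0.59 and -0.61 against medians of 0.01 and 0.03 over all tested genes. Of all genes, 31.8% and 33.0% fell. With total counts 11 and 10 of the 18 fell and 4 rose in each mutant, where 16.1% and 16.2% of all genes fell. KIN2, a cold and abscisic acid induced gene, changed by -2.23 ± 0.03 in thp1-5 and -2.32 ± 0.03 in sac3bc. RD29A, a classical drought response gene, changed by -1.21 ± 0.03 in thp1-5. In both mutants 2 of 6 guard cell markers rose and 1 fell, where 32.1% and 35.0% of all genes rose. With total counts 5 rose in thp1-5 and 4 in sac3bc, and 0 fell, where 56% and 60.8% of all genes rose. Their summed level was 80.6 to 84.9 CPM in Col, 91.2 to 95.2 CPM in thp1-5 and 86.7 to 89.0 CPM in sac3bc. None of the 6 was at 0. The potassium channel genes KAT2 (1.28 ± 0.13 in thp1-5 and 0.79 ± 0.13 in sac3bc) and KAT1 (0.20 and 0.29) rose, MYB60, a guard cell transcription factor gene, changed by -0.30 and -0.41, and SLAC1, HT1 and FAMA were not called. The part of these cells in the HIS1-3 result was not tested.

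Among genes with a symbol in the reference, those whose pattern over the 9 libraries lay closest to HIS1-3 were SEN1, TPS03, ASN1 and VSP1. Loci without a symbol were not compared. Likeness was the root mean square difference of log2 CPM, each gene centred on its mean. It was taken among 7514 genes with a symbol and a mean of at least 5 CPM. It was 0.12 for SEN1, a senescence-associated gene, and 0.17 for the terpene synthase TPS03. It was 0.30 for the asparagine synthetase ASN1 and 0.30 for the vegetative storage protein VSP1. SEN1 averaged 139 CPM in Col, 13.1 CPM in thp1-5 and 12.4 CPM in sac3bc.

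HTR4 (AT4G40030) and HTR5 (AT4G40040), which lie 42 bases apart on chromosome 4 and encode H3.3, both fell. HTR4 was at 310, 293 and 287 CPM in Col, 200, 205 and 199 CPM in thp1-5 and 187, 184 and 183 CPM in sac3bc. HTR5 was at 396, 377 and 399 CPM in Col, 315, 300 and 302 CPM in thp1-5 and 293, 283 and 292 CPM in sac3bc. All Col libraries were above all mutant libraries for both genes. HTR4 changed by -0.56 ± 0.03 in thp1-5 (adjusted p = 1.83e-40) and -0.68 ± 0.03 in sac3bc (adjusted p = 3.4e-50). HTR5 changed by -0.35 ± 0.03 (adjusted p = 1.52e-25) and -0.43 ± 0.03 (adjusted p = 3.07e-33). With total counts these falls were still called and shrank to -0.27 and -0.35 for HTR4 and to -0.07 and -0.10 for HTR5. No stretch of 50 bases of either gene recurs elsewhere in the reference genome.

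HTR4 fell more than HTR5. Of the counts per kb of these 2 genes, HTR4 made up 46.4% ± 1.13 (SD, n = 3) in Col, 42.9% ± 0.954 in thp1-5 and 42.1% ± 0.475 in sac3bc, with no overlap between Col and either mutant (exact permutation p = 0.1, the smallest possible). AT5G10980, the remaining gene that the reference names H3.3, was at a mean of 127, 129 and 130 CPM in the 3 genotypes and was not called (0.02 ± 0.03 in thp1-5 and 0.03 ± 0.03 in sac3bc). With total counts it was called higher in both, at 0.31 and 0.37, about the shift of all genes. This comparison was added after its values were seen. Its share of the H3.3 counts per kb was 24.3% ± 0.892 in Col, 30.8% ± 0.410 in thp1-5 and 32.4% ± 0.0297 in sac3bc.

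HTR4 and HTR5 were also set beside H3.1, the canonical H3 made during replication. The 5 H3.1 genes were on the list of canonical core histones, of which 24 of 27 tested genes rose and 1 fell in thp1-5, and 23 rose and 1 fell in sac3bc. The list's medians were 0.42 and 0.40, and 26 rose and 1 fell in each mutant with total counts. Of all genes 32.1% rose in thp1-5 and 35.0% in sac3bc, and 56% and 60.8% with total counts. HTB3, the 1 that fell, changed by -0.72 ± 0.05 in thp1-5 and -0.86 ± 0.05 in sac3bc. The H3.1 gene AT5G65360 rose by 0.74 ± 0.04 and 0.60 ± 0.04, and AT1G09200 rose by 0.71 and 0.63. The H3.1 genes encode the same protein. How reads shared between them were counted is not given, so their single values are uncertain. In a share added after the values were seen, H3.3 made up 74.6%, 73.5% and 73.6% of the counts per kb of the H3.1 and H3.3 genes in Col. It made up 57.6%, 58.8% and 58.1% in thp1-5 and 58.8%, 59.1% and 58.6% in sac3bc, without overlap with Col (exact permutation p = 0.1, the smallest possible). The sum of both kinds was 863 ± 8.51 CPM per kb in Col, 880 ± 16.2 in thp1-5 and 833 ± 13.2 in sac3bc.

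DNA replication and mitosis genes moved in the same direction as the canonical histones. Of 21 such genes 19 rose in thp1-5 and 17 in sac3bc, with 0 falling. Among all genes 32.1% rose and 31.8% fell in thp1-5, and 35.0% rose and 33.0% fell in sac3bc. With total counts 16.1% and 16.2% of all genes fell. The summed level of the 21 was 350 to 357 CPM in Col, 515 to 534 CPM in thp1-5 and 484 to 490 CPM in sac3bc. TSO2, a ribonucleotide reductase subunit, rose by 0.79 ± 0.05 and 0.80 ± 0.05. All 6 leaf markers fell in both mutants, and their sum was 56800 to 58500 CPM in Col, 35300 to 36600 CPM in thp1-5 and 30700 to 31900 CPM in sac3bc. Of 7 root markers 4 rose and 2 fell in thp1-5 and 5 rose and 2 fell in sac3bc, and their sum was 3770 to 3840 CPM in Col, 1840 to 1890 CPM in thp1-5 and 1830 to 1880 CPM in sac3bc. PYK10 made up most of that sum, and the other 6 root markers summed to 124 to 126 CPM in Col, 157 to 172 CPM in thp1-5 and 180 to 186 CPM in sac3bc. All 3 tested shoot meristem markers fell in both, from a sum of 26.1 to 30.0 CPM in Col to 16.9 to 17.6 CPM in thp1-5 and 14.4 to 16.1 CPM in sac3bc, and 2 of them fell with total counts. The part of these shifts in the histone results was not tested.

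Chaperones that insert H3 were also read. Of 13 H3 deposition genes 6 rose and 1 fell in each mutant, with medians of 0.14 in thp1-5 and 0.11 in sac3bc. Among all genes 32.1% and 35.0% rose, and 63.8% and 68.0% were called. With total counts 12 of the 13 rose and 0 fell in thp1-5, and 11 rose and 1 fell in sac3bc. Under that scaling 56% and 60.8% of all genes rose. FAS1, a subunit of the CAF-1 complex that inserts H3.1 during replication, rose by 0.93 ± 0.10 in thp1-5 and 0.77 ± 0.09 in sac3bc. HIRA, a chaperone of H3.3, rose by 0.58 ± 0.08 and 0.55 ± 0.08, and CABIN1, which acts with HIRA, fell by 0.39 and 0.52 on the log2 scale.

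HTR11 (AT5G65350) rose from a low level. It had 18, 7 and 21 counts in the Col libraries, 67, 102 and 79 in thp1-5 and 114, 122 and 130 in sac3bc. In CPM this was 1.59, 0.515 and 1.58 in Col, 4.98, 5.76 and 5.56 in thp1-5 and 6.53, 6.42 and 6.63 in sac3bc. Every mutant library was above every Col library, and every sac3bc library was above every thp1-5 library. The change was 2.17 ± 0.22 in thp1-5 (adjusted p = 2.12e-16), 4.51-fold, and 2.43 ± 0.21 in sac3bc (adjusted p = 5.37e-21), 5.39-fold. Without Col replicate 2, the lowest library, it was 1.78 and 2.04, and both calls held. Between the mutants it was not called (-0.26 ± 0.15, adjusted p = 0.211).

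The neighbour of HTR11 moved in the same direction. HTR11 is a single exon on chromosome 5 from 26119211 to 26119825, minus strand, and begins 33 bases after the end of the H3.1 gene AT5G65360 on that strand. HTR11 counts were 2.84%, 0.878% and 2.76% of those of AT5G65360 in Col, 5.11%, 6.03% and 5.94% in thp1-5 and 7.39%, 7.46% and 7.65% in sac3bc. The ratio was thus higher in every mutant library as well. Whether reads from the end of AT5G65360 entered the HTR11 count was not tested.

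HTR12 (AT1G01370), the CENH3 gene, was at 3.70, 3.31 and 2.63 CPM in Col, 3.79, 2.99 and 4.22 CPM in thp1-5 and 2.92, 3.1 and 3.67 CPM in sac3bc. The 3 genotypes overlapped. Its differences from Col were 0.18 ± 0.20 (adjusted p = 0.427) and 0.02 ± 0.19 (adjusted p = 0.928), and the former was called with total counts (0.47, adjusted p = 0.027). At this level a change of the size of those of H1.1 and H1.2 is not detectable. Of 3 genes for CENH3 loading and the inner kinetochore, 0 were called in thp1-5, and KNL2, which recognises centromeric nucleosomes, fell by 0.39 in sac3bc. Among all genes 63.8% were called in thp1-5 and 68.0% in sac3bc. With total counts the KNL2 call was absent, and 2 of the 3 were called higher in each mutant, where 56% and 60.8% of all genes were.

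HTA9 (AT1G52740), the H2A.Z gene with the highest level per kb in all 3 genotypes, fell. It was at 99.4, 104 and 103 CPM in Col, 75.1, 70.2 and 72.7 CPM in thp1-5 and 68.8, 69.6 and 68.8 CPM in sac3bc. Col was above both mutants in every library. The change was -0.50 ± 0.04 in thp1-5 (adjusted p = 6.32e-22) and -0.57 ± 0.04 in sac3bc (adjusted p = 4.7e-27), and -0.21 and -0.23 with total counts, both still called.

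HTA11 (AT3G54560) and HTA8 (AT2G38810) behaved less clearly. HTA11 was at 17.3, 20.7 and 16.1 CPM in Col, 20.7, 18.1 and 18.4 CPM in thp1-5 and 14.9, 14.6 and 17.5 CPM in sac3bc. HTA8 was at 6.17, 4.86 and 3.98 CPM in Col, 6.17, 6.04 and 5.56 CPM in thp1-5 and 4.06, 5.16 and 5.30 CPM in sac3bc. Both mutants overlapped Col for both genes. In thp1-5 HTA11 was not called (0.07 ± 0.09, adjusted p = 0.48), but it was with total counts (0.36). In sac3bc it was called lower (-0.20 ± 0.09, adjusted p = 0.0367). That call was lost without Col replicate 2 (-0.08), sac3bc replicate 1 (-0.16) or sac3bc replicate 2 (-0.15) and in DESeq2 (adjusted p = 0.0796), and with total counts the sign turned (0.14). HTA8 was called in neither mutant (0.26 ± 0.16 and -0.03 ± 0.16). In thp1-5 it was called with total counts (0.55) and without Col replicate 1 (0.42).

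Within H2A.Z the share of HTA9 dropped. HTA9 made up 84.3% ± 1.63 of the H2A.Z counts per kb (SD, n = 3) in Col, 77.8% ± 0.684 in thp1-5 and 80.2% ± 1.62 in sac3bc. HTA11 made up 11.8% ± 1.24, 16.2% ± 0.582 and 14.4% ± 1.26. For both genes the exact permutation p of each mutant against Col was 0.1, the smallest possible. The shares are parts of the same sum, so a lower level of HTA9 raises the HTA11 share. The log2 fold change of HTA11 itself was 0.07 in thp1-5 and -0.20 in sac3bc. The summed H2A.Z level was 144 ± 4.15 CPM per kb in Col, 111 ± 4.31 in thp1-5 and 102 ± 1.93 in sac3bc.

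Genes that insert or remove H2A.Z were called in both directions, as all genes were. Of 10 tested, 2 rose and 4 fell in thp1-5, and 3 rose and 5 fell in sac3bc. Among all genes 32.1% rose and 31.8% fell in thp1-5, and 35.0% rose and 33.0% fell in sac3bc. With total counts 6 rose and 4 fell, and 6 rose and 3 fell, where 56% and 60.8% of all genes rose. INO80, a chromatin remodeller, changed by -0.69 ± 0.04 and -0.88 ± 0.04. ARP6, a subunit of the SWR1 complex that inserts H2A.Z, changed by -0.63 ± 0.09 and -0.55 ± 0.08. PIE1, the ATPase of that complex, rose by 0.39 ± 0.05 in thp1-5.

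**Figure D3:**
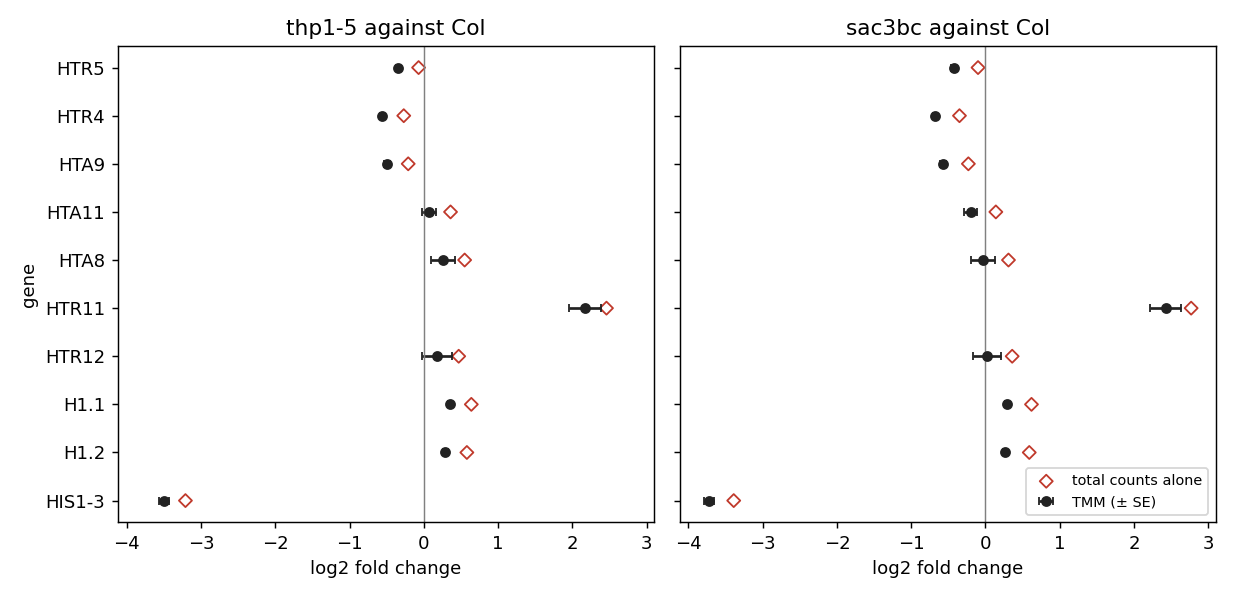
Log2 fold change of each gene against Col, with thp1-5 on the left and sac3bc on the right. Filled circles are TMM values with bars of 1 standard error, and open diamonds are values scaled by total counts. HIS1-3 lies below -3 and HTR11 above 2 under both scalings, and the HTR5 diamonds lie near 0.

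Levels per kb order the genes within a genotype. In Col the order was HTR5 (259 ± 7.82 CPM per kb), HTR4 (224 ± 8.90), H1.1 (148 ± 2.65), HTA9 (121 ± 3.02), HIS1-3 (98.5 ± 5.81), H1.2 (93.6 ± 0.246), HTA11 (17.0 ± 2.26), HTA8 (5.66 ± 1.25), HTR11 (1.99 ± 1.00) and HTR12 (1.81 ± 0.307). Of these neighbours HTR11 and HTR12 overlapped, and HIS1-3 and H1.2 were close without overlapping. In thp1-5 H1.1 stood above HTR4, at 189 ± 7.0 against 152 ± 2.67 CPM per kb, and in sac3bc at 180 ± 5.92 against 140 ± 1.58. HIS1-3 stood beside HTR11 in thp1-5, at 8.72 ± 0.956 and 8.84 ± 0.656 CPM per kb, with overlapping libraries.

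Differences between the mutants were small in size for these genes. Between thp1-5 and sac3bc 3 of the 10 genes were called higher in thp1-5 and 0 lower. Of all genes 23.0% were called, 12.1% higher and 10.9% lower. At least 2-fold changes numbered 0 of 10, against 1.04% of all genes, and 6 of the 10 did not overlap between the mutants, against 34.7%. HTR4 was higher in thp1-5 by 0.12 ± 0.03 (adjusted p = 0.000254). HTA11 was higher by 0.27 ± 0.08 (adjusted p = 0.00939) and HTR5 by 0.08 ± 0.03 (adjusted p = 0.0177). The HTA11 call was lost without thp1-5 replicate 1 (0.21), sac3bc replicate 1 (0.24) or sac3bc replicate 2 (0.22) and in DESeq2. The HTR5 call was lost without thp1-5 replicate 1 (0.05) or sac3bc replicate 2 (0.06) and with total counts (0.03).

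**Figure D4:**
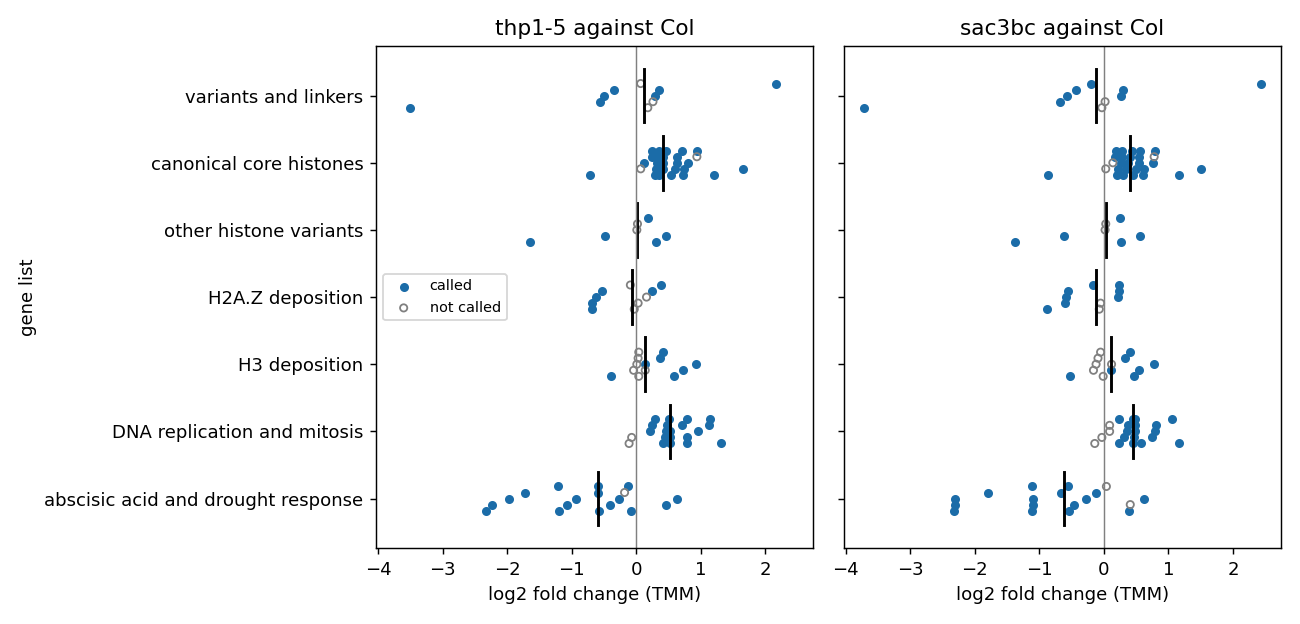
Log2 fold changes against Col of the 10 genes and of 6 gene lists, with 1 point per gene (filled where called) and a vertical bar at the median. Canonical core histones and DNA replication genes lie mostly above 0, and abscisic acid and drought response genes mostly below it.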

How the data were processed

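Polyadenylated RNA of 9 seedling libraries (3 genotypes, 3 libraries each) was sequenced as single-end reads, per the labels' protocols. The deposited values are read counts per gene, not normalized, with a gene length from the same tables. STAR and DESeq2 are named by the submitters' processing notes, without versions or roles. Which build, annotation and counter were used, and whether strand was used, is not given in the sources seen here.

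All loci were fitted in edgeR 4.0.16 (R 4.3.3, limma 3.58.1) by the quasi-likelihood F-test, with robust estimation and TMM scaling, in 1 model over the 9 libraries with 6 residual degrees of freedom. The filter filterByExpr at a minimum count of 10 left 22400 genes, and the common biological coefficient of variation was 0.0284. Standard errors are the absolute log2 fold change over the square root of F, and are approximate. CPM were scaled by TMM. Shares were computed from counts per kb and compared by exact two-sided permutation tests. Sequences were read from the RefSeq TAIR10.1 genome.

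No label says whether replicates are separate cultures, and p-values therefore reflect the spread between these libraries, which may be technical. Counts of replicates differed by 1.45 to 1.92 times the variance of counting error alone, more than sequencing 1 library again would give. The genes and lists were chosen with earlier results of these data known. Genes named by rule are the 10 members, THP1, SAC3B and SAC3C, and the 4 genes with a symbol nearest to HIS1-3. To these were added up to 3 called genes with the smallest adjusted p in each list and comparison. SLAC1, HT1, FAMA, HTA7, AT5G10980, AT1G04503 and MGH3 are named outside this rule. Some list entries whose names the reference lacks were left out. Alternatives were DESeq2 1.42.0, its size factors within edgeR, total counts, no filter on low counts, a replicate block, each replicate left out, loci that share exonic bases left out, and shares not divided by length.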

Additional observations from a re-analysis of the deposited data

How the results depend on the processing

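Of the results named, those of HIS1-3, HTR11, HTR4, HTR5, HTA9, H1.1 and H1.2 against Col kept direction and call under every alternative in which they were tested. HIS1-3 ranged from -3.56 to -3.21 in thp1-5 and from -3.76 to -3.39 in sac3bc. With total counts 6 of the 10 genes were called higher in thp1-5, where 56.0% of all genes were, and HTA11 in sac3bc turned to 0.14 (adjusted p = 0.149). Leaving out 1 replicate gave 1 to 3 genes called higher between thp1-5 and sac3bc. Leaving out 9959 loci that share exonic bases, H1.1, H1.2 and HTA9 among them, left 9432 and 10095 genes called against Col. Fewer loci were tested there, and their number is not given here. Of the members 1 was called higher in each mutant, since H1.1 and H1.2 were left out. Without division by length, the share of H1.1 differed from Col by 11.8 and 11.3 percentage points in thp1-5 and sac3bc, that of H1.2 by 8.71 and 9.44 and that of HIS1-3 by -20.5 and -20.8. That of AT5G10980 in H3.3 differed by 4.68 and 5.92, and by -1.24 between the mutants, and that of H3.3 in H3 by -13.2 and -12.8. Replicate numbers did not pair libraries: deviations of same-numbered libraries correlated at -0.01 to 0.04, and 5 of 9 libraries correlated best with their own number. With the replicate block 14258, 15202 and 5093 genes were called in the 3 comparisons. H1.1 was then called higher in thp1-5 than in sac3bc (0.07, adjusted p = 0.0472). The same H1.1 call appeared with DESeq2 size factors within edgeR (0.08, adjusted p = 0.0291) and without sac3bc replicate 1 (0.09, adjusted p = 0.0162). HTR12, HTA8 and HTR11 in Col rest on few counts, which limits the changes detectable there.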

Other observations

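Histone variants outside the 10 genes were called in both directions, as all genes were. Of 7 tested variants 3 rose and 2 fell in each mutant, with medians of 0.02 and 0.03. Among all genes 63.8% were called in thp1-5 and 68.0% in sac3bc. With total counts 5 variants rose and 1 fell in thp1-5, and 5 rose and 2 fell in sac3bc, where 56% and 60.8% of all genes rose. HTA4 changed by -1.64 ± 0.26 in thp1-5 (edgeR, adjusted p = 2.47e-08) and by -1.38 ± 0.24 in sac3bc (edgeR, adjusted p = 2.14e-07). HTA3, an H2A.X gene whose product is phosphorylated at DNA breaks, rose by 0.46 ± 0.08 and 0.56 ± 0.07. HTA6, HTA7 and HTA12 encode H2A.W, the variant of heterochromatin. HTA6 rose by 0.31 ± 0.05 in thp1-5 and 0.27 ± 0.05 in sac3bc, and HTA12 changed by -0.48 ± 0.10 and -0.62 ± 0.10. HTA7 was called in neither mutant (0.01 and 0.02).

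Of 6 proteins that carry an H1-like globular domain without being linker histones, 1 gene rose and 3 fell in thp1-5 and 4 fell in sac3bc. Among all genes 32.1% rose and 31.8% fell in thp1-5, and 35.0% rose and 33.0% fell in sac3bc. With total counts 3 of the 6 rose and 0 fell, and 3 rose and 1 fell, where 56% and 60.8% of all genes rose. HON5 changed by -0.31 ± 0.04 and -0.52 ± 0.04, and HON4 by -0.25 ± 0.04 and -0.39 ± 0.04. Of 2 tested pollen and sperm markers, 2 rose in thp1-5 and 1 in sac3bc, at a summed level of 1.94 to 3.3 CPM in Col, 3.73 to 4.63 CPM in thp1-5 and 3.26 to 4.12 CPM in sac3bc. The sperm H3 gene MGH3 was at 0 in every library.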
